A study of Mus musculus with 4 samples.

Results

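The mouse mitochondrial genome holds 37 genes, and their RNA was followed in intestinal stem cells (ISCs) sorted from young and old animals. The genes were taken as every row of the count table whose name starts with mt-, which gave 37 of the 52459 genes listed. They comprise 13 mRNAs, 2 rRNAs (mt-Rnr1 and mt-Rnr2) and 22 tRNAs. By the annotation, 28 of them lie on the + strand of chromosome M and 9 on the - strand, the latter being mt-Nd6 and 8 tRNAs. ISCs came from untreated wild-type C57/Bl6 mice of 2 months (ISC_2mth) and 22 months (ISC_22mth), with 2 libraries per age, each from a pool of 5 animals. The cells were crypt cells of the small intestine that passed a sort on surface proteins, negative for CD31 and CD45. All 4 libraries share strain, genotype, sort and amplification, and differ in their labels by age alone. A pool hides the spread between its animals, so the errors below are between 2 pools of each age.

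Mitochondria carry their own circular genome, from which the mRNAs of subunits of the respiratory chain and ATP synthase, the rRNAs of the mitochondrial ribosome and a set of tRNAs are made. Each strand is copied into long precursors, and tRNAs that lie between the other genes are cut out, which frees the rRNAs and mRNAs. All the enzymes that copy, cut, modify and degrade these RNAs are made from nuclear genes. ISCs sit at the base of the crypt, divide throughout life and replace the epithelium, and mitochondrial respiration has been tied to how they work and differentiate.

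The tRNA sequences that the age comparison turns on are shown first, from the GENCODE vM21 transcripts of GRCm38, written 5′ to 3′ on the gene's own strand with the anticodon in capitals. The tRNA for leucine, mt-Tl1, lies at chrM:2676-2750 on the + strand, directly after mt-Rnr2. The tRNA for methionine, mt-Tm, lies at chrM:3845-3913 on the + strand, directly before mt-Nd2. The tRNA for cysteine, mt-Tc, lies at chrM:5192-5257 on the - strand, in a cluster of tRNA genes beside the origin from which the light strand is replicated. The tRNA for phenylalanine, mt-Tf, lies at chrM:1-68 on the + strand, before mt-Rnr1, and is shown for comparison, being 1 of 6 tested tRNAs that did not pass.
mt-Tl1: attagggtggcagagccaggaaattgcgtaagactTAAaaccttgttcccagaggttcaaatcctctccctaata
mt-Tm: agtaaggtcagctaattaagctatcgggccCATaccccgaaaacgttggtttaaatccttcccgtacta
mt-Tc: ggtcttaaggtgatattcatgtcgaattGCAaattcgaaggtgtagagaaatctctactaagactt
mt-Tf: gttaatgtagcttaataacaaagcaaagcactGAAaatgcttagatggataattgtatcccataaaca

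Several genes gave almost no counts, and the mRNAs among them, apart from mt-Atp8, have near-complete copies among nuclear transcripts. No count fell on 10 of the 37 genes in any pool, which were mt-Co2, mt-Atp6, mt-Nd4l and the tRNA genes mt-Tw, mt-Ty, mt-Ts1, mt-Td, mt-Tk, mt-Tg and mt-Th. A single count fell on each of mt-Atp8 and mt-Co3 in all pools together. These mRNAs encode subunits of cytochrome c oxidase (mt-Co2, mt-Co3), ATP synthase (mt-Atp6, mt-Atp8) and complex I (mt-Nd4l). Every stretch of 50 bases in mt-Co2 was also found in the transcript of a nuclear gene, as were 99.9% of those in mt-Co3, 99.5% in mt-Atp6, 98.8% in mt-Nd4l and 98.0% in mt-Nd3. The share was 62.2% in mt-Nd4 and 51.1% in mt-Co1, 8.19% in mt-Nd2, 7.61% in mt-Nd5 and 1.04% in mt-Rnr2, and no stretch of mt-Nd1, mt-Nd6, mt-Cytb, mt-Atp8 or mt-Rnr1 was found in a nuclear transcript. Nor was any stretch of the 7 tRNA genes without counts, of which mt-Tw, mt-Ty and mt-Th also lie outside the copied block described next. The search covered annotated transcripts only, so a nuclear copy outside them would not have been seen.

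**Figure D1:**
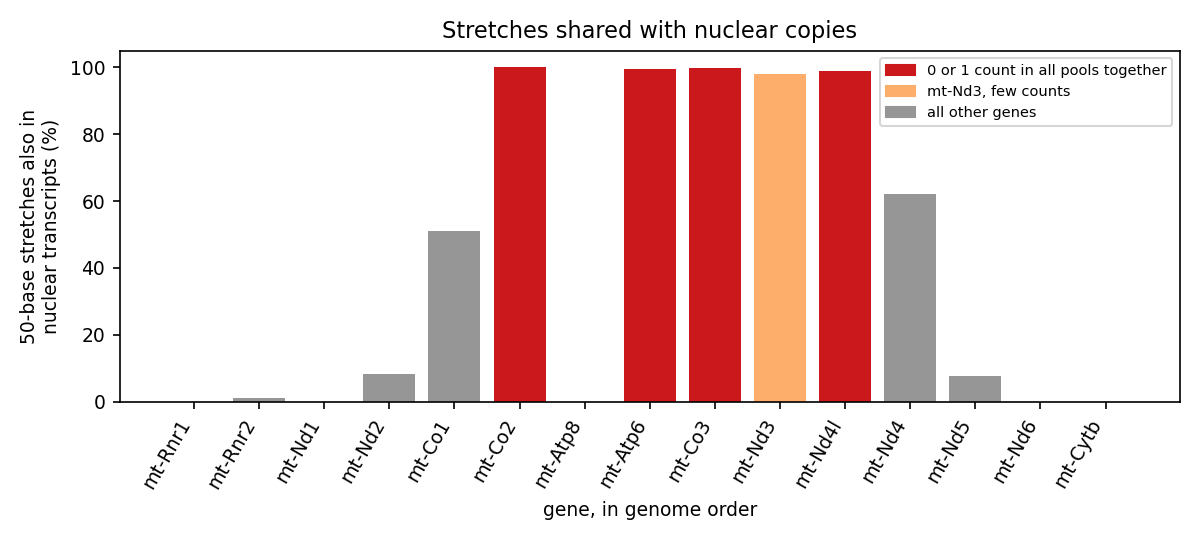
Share of the 50-base stretches of each rRNA and mRNA gene (vertical axis, percent) that also occur in a nuclear transcript, with genes in genome order. Red bars are genes with 0 or 1 count in all pools together, and mt-Atp8, with 1 count, has no bar because its share is 0.

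The copies lie side by side on chromosome 1. Annotated pseudogenes, 7 in number, span chr1:24611535-24616197 of GRCm38, 4663 bases, and their order is that of chrM:6394-11042, 4649 bases, read from the other end. Of the 11 mitochondrial genes that lie wholly inside this stretch, 9 had 0 or 1 count, and the exceptions were mt-Nd3 and mt-Tr. The opening of mt-Co2 shows how close the copies are. It is given with the matching bases of Gm28661, a pseudogene of the chromosome 1 stretch, and of Gm13341, a pseudogene on chromosome 2, with bases that differ from mt-Co2 in capitals. They lie at chrM:7013-7072 (+ strand), chr1:24615506-24615565 (- strand) and chr2:22587903-22587962 (- strand).
mt-Co2: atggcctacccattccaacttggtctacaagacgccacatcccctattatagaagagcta
Gm28661: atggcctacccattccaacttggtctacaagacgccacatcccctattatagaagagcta
Gm13341: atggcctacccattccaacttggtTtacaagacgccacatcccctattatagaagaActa
The 60 bases of Gm28661 held 0 differences from mt-Co2 and those of Gm13341 held 2. Over the whole of mt-Co2, 684 bases, the edit distance was 3 to Gm28661 and 28 to Gm13341. A read from such a stretch aligns equally well to both places, and the treatment of such reads in the counting is not given in the sources used here. Its part in the counts of 0 was not tested, and no level is given for mt-Co2, mt-Co3, mt-Atp6, mt-Atp8 or mt-Nd4l.

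The nuclear copies themselves held few counts. Of the nuclear genes that share a 50-base stretch with a mitochondrial gene, 14 had counts, with sums of 675 and 713 in young and 1015 and 977 in old ISCs. Of the 12 tested, 1 (Gm13340) was higher by edgeR's test at a false discovery rate (FDR) under 0.05, against 1.63% of all genes. Of these 12, 11 had a log2 fold change above 0, against 49.5% of all genes. The median of the 12 was 0.70, against -0.0049 for all genes tested. The most counts of any copy were on Gm13340, a copy of part of mt-Co1 on chromosome 2, with 292 and 275 in young and 451 and 426 in old ISCs. Next in order of counts were Gm13341, Gm4076, Gm28661 and Gm11512.

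Mitochondrial RNA made up most of every library. The 37 genes held 62.6% of 11662654 and 65.7% of 13394558 counts in young ISCs, against 73.8% of 15975698 and 72.9% of 14231979 in old ISCs. Both old pools were above both young pools. The rRNAs accounted for nearly all of it, although the labels give the molecule as polyA RNA. They took 58.3% and 61.1% in young and 67.5% and 67.1% in old ISCs, a difference of 7.63 percentage points between the means. The mRNAs took 4.31% and 4.60% in young and 6.27% and 5.85% in old ISCs, and the tRNAs 0.00387% and 0.00343% in young and 0.00618% and 0.00586% in old ISCs. The Wilson 95% intervals of these shares were at most 0.0566 percentage points wide and cover counting error only, since the amplification marks no single molecules. Shares of a library have a common sum, so a higher mitochondrial share and less RNA of all other genes cannot be told apart, nor can different cells and different RNA per cell. With 2 pools against 2, the smallest two-sided p of an exact permutation test is 0.333, so no p is given for a share.

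**Figure D2:**
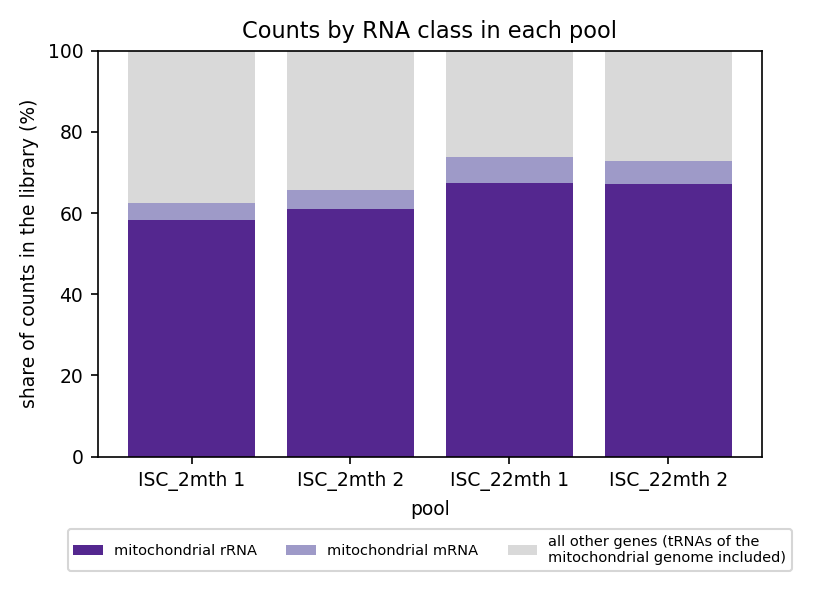
Share of each library's counts (vertical axis, percent) on mitochondrial rRNAs and mRNAs and on all other genes, 1 bar for each pool. The rRNA share is 58.3% and 61.1% at 2 months and 67.5% and 67.1% at 22 months.

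The libraries held markers of ISCs and of other cells of the epithelium. All 10 ISC markers were measured, among them Lgr5 and Olfm4, at a summed level of 2884 to 3137 normalized CPM (counts relative to library size, corrected by TMM, which sets the bulk of genes level between libraries) in the 4 pools. None of the 10 passed the age test (edgeR FDR under 0.05, at which 1.63% of all genes were higher and 0.628% lower). At an unadjusted p under 0.05, 2 were higher and 4 lower, against 9.26% and 7.65% of all genes. Enterocyte markers rose in part with age, since 3 of 8 passed (Fabp1, Fabp2 and Sis) and the summed level was 321 and 439 in young and 804 and 680 in old pools. Of 6 Paneth cell markers, 2 passed (Defa17 and Defa24), and the sum was 925, 715, 2062 and 800.1, the high value being the first ISC_22mth pool. At an unadjusted p under 0.05 (edgeR), 6 of the 8 enterocyte and 5 of the 6 Paneth cell markers were higher and 0 lower. The 6 goblet cell markers, led by Muc2, summed to 1773 and 2341 in young and 2408 and 1885 in old pools, and the 6 enteroendocrine markers to 39.05 and 151 in young and 127 and 88.9 in old pools, and none of these passed. Leukocyte markers summed to 11.5 and 14.05 in young and 23.0 and 22.9 in old pools, nearly all of it Itgam. Itgam was called higher (edgeR FDR 0.0296), as were Ccr2 with 0, 0, 13 and 16 counts (edgeR FDR 0.0337) and, as 1 of 5 tuft cell markers of which 3 were tested, Dclk1 with 4, 4, 42 and 19 counts (edgeR FDR 0.0258). Ccr2 and Dclk1 passed the filter on low counts (over 5 reads and over 1 CPM in some pool) through their old pools alone. Ptprc, the pan-leukocyte marker CD45, had at most 2 counts in a pool, and 6 of the 16 leukocyte markers had none. The part of these cell types in the mitochondrial values was not tested.

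Most mitochondrial genes that could be tested were higher in old ISCs. Of the 37 genes, 19 passed that filter, namely both rRNAs, 8 of 13 mRNAs and 9 of 22 tRNAs. By edgeR's quasi-likelihood test with Benjamini-Hochberg adjustment over the 13692 genes tested, old ISCs had 12 called higher and 0 lower, with an FDR under 0.05. Of all genes tested 2.26% were called, 1.63% higher and 0.628% lower. At an unadjusted p under 0.05, 16 were higher and 0 lower, against 9.26% and 7.65% of all genes, and limma voom, DESeq2 and edgeR's likelihood ratio test also called 0 lower. In all 19 both old pools were above both young pools, as was so for 24% of all genes tested. The filter let mt-Tq and mt-Tn in through their old pools alone, so these 2 had to be high there, and the other 17 passed it in a young pool also. The higher genes were both rRNAs, 7 mRNAs and 3 tRNAs. The median log2 fold change was 0.66 for the rRNAs, 0.95 for the mRNAs tested and 1.46 for the tRNAs tested, against -0.0049 for all genes tested. With total counts in place of TMM the median of all genes was -0.50, and the mitochondrial values fell by a like amount, to 0.18 for mt-Rnr1, 0.17 for mt-Rnr2 and between 0.35 and 0.86 for the 7 mRNAs. All 9 were called higher under that scaling also, where 96 of all 13692 genes were higher and 4554 lower.

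The rRNAs were the most abundant RNAs and had the lowest fold changes of the genes called. The 12S rRNA of the small subunit of the mitochondrial ribosome, mt-Rnr1 (chrM:70-1024), was at 195220.2 and 193820.4 normalized CPM in young and 309599.8 and 310849.9 in old ISCs. On the TMM scale the old pools lay far above the young ones, with almost no spread within an age. The log2 fold change was 0.67 ± 0.044 (SE, n = 2 per age, edgeR FDR 7.03e-08), the lowest p of all genes tested. With total counts in place of TMM the log2 fold change was 0.18 (edgeR FDR 0.0233). The 16S rRNA of the large subunit, mt-Rnr2 (chrM:1094-2675), was at 273542 and 348534 in young and 506894 and 470981 in old ISCs. Its young pools were further apart but stayed below the old ones, with a log2 fold change of 0.65 ± 0.072 (edgeR FDR 2.70e-05). Counts of mt-Rnr1 per 100 counts of mt-Rnr2 were 71.4 and 55.6 in young and 61.1 and 66.0 in old ISCs, so the ages overlapped in the balance of the rRNAs.

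**Figure D3:**
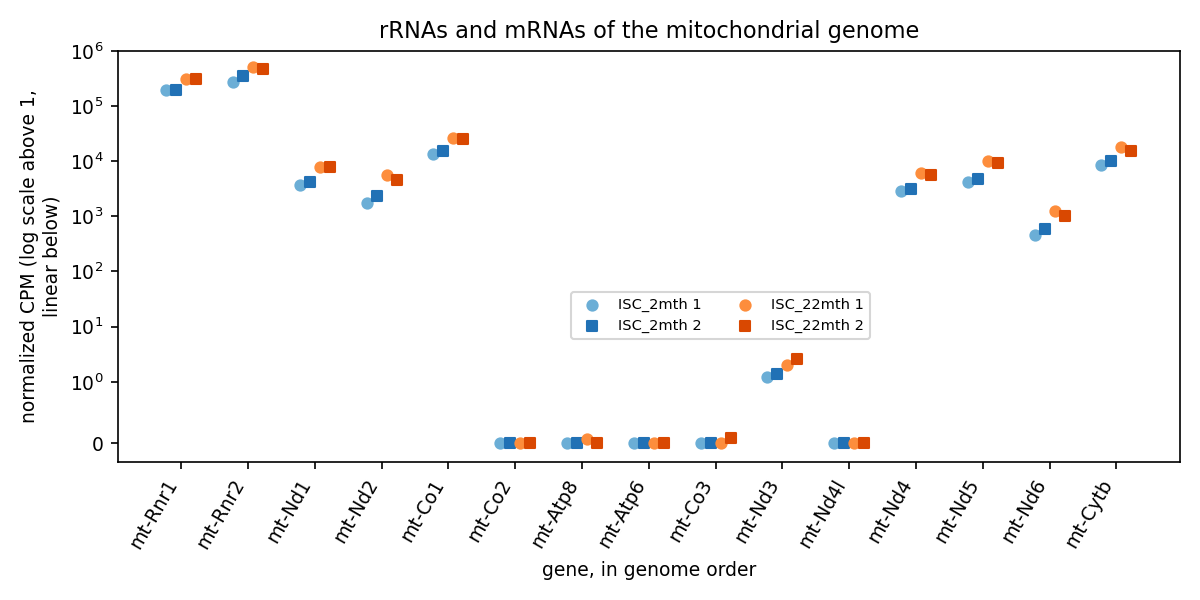
Normalized CPM (vertical axis, logarithmic above 1 and linear below) of the 2 rRNAs and 13 mRNAs in genome order, 1 point for each pool. Blue points are ISC_2mth and orange points ISC_22mth, and the ages do not overlap for any of the genes with more than 1 count.

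Complex I, which takes electrons from NADH, has 7 subunits encoded in the mitochondrial genome, and mRNAs of 5 rose. The mRNA of mt-Nd2 (chrM:3914-4951) changed most, from 1770.4 and 2294 to 5694 and 4608 normalized CPM. Old pools were above young ones by more than the gap between replicates, and the log2 fold change was 1.34 ± 0.12 (edgeR FDR 9.77e-07). For mt-Nd1 (chrM:2751-3707) the levels were 3752 and 4189 in young and 7847 and 7687 in old ISCs, a log2 fold change of 0.97 ± 0.083 (edgeR FDR 9.75e-07). In young ISCs the counts of mt-Nd2 were 47.2 and 54.8 per 100 counts of mt-Nd1, and in old ISCs 72.6 and 59.9, so the ages did not overlap in this ratio.

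The complex I subunits further along the genome gave the same direction. Levels of mt-Nd5 (chrM:11742-13565) were 4167 and 4826 in young and 10024 and 9155 in old ISCs, a log2 fold change of 1.09 ± 0.088 (edgeR FDR 5.08e-07). Those of mt-Nd4 (chrM:10167-11544) were 2924 and 3173 in young and 6198 and 5496 in old ISCs, a log2 fold change of 0.94 ± 0.089 (edgeR FDR 2.63e-06). Both genes had close replicates and no overlap of ages. The mRNA of mt-Nd3 had only 18, 21, 27 and 32 counts, in the order young 1, young 2, old 1 and old 2, with a log2 fold change of 0.82 ± 0.49 that did not pass (edgeR FDR 0.418).

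The mRNA from the other strand rose with its neighbor. The mRNA of mt-Nd6 (chrM:13552-14070) is the only one encoded on the - strand, and its 3′ end by the annotation overlaps the end of mt-Nd5. It was at 458 and 595 in young and 1245 and 1016 in old ISCs, with a log2 fold change of 1.10 ± 0.13 (edgeR FDR 3.37e-05). Counts of mt-Nd6 per 100 counts of mt-Nd5 were 11.0 and 12.3 in young and 12.4 and 11.1 in old ISCs. The ages overlapped in this ratio. Since no strand setting of the counting is given, reads of mt-Nd6 and of the precursor copied across it from the other strand cannot be told apart.

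Complexes III and IV had a measured mRNA each. The mRNA of mt-Cytb (chrM:14145-15288), the cytochrome b of complex III, was at 8341 and 10195 in young and 18236 and 15181 in old ISCs, a log2 fold change of 0.85 ± 0.096 (edgeR FDR 3.09e-05). That of mt-Co1 (chrM:5328-6872), the catalytic subunit of cytochrome c oxidase, was at 13227 and 15567 in young and 26523 and 25036 in old ISCs, a log2 fold change of 0.84 ± 0.078 (edgeR FDR 2.37e-06). Neither gene's ages overlapped. No mRNA of ATP synthase could be measured. Both rRNAs, the 7 mRNAs called and mt-Tl1 stayed called in all 16 other settings tried, including without each pool.

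**Figure D4:**
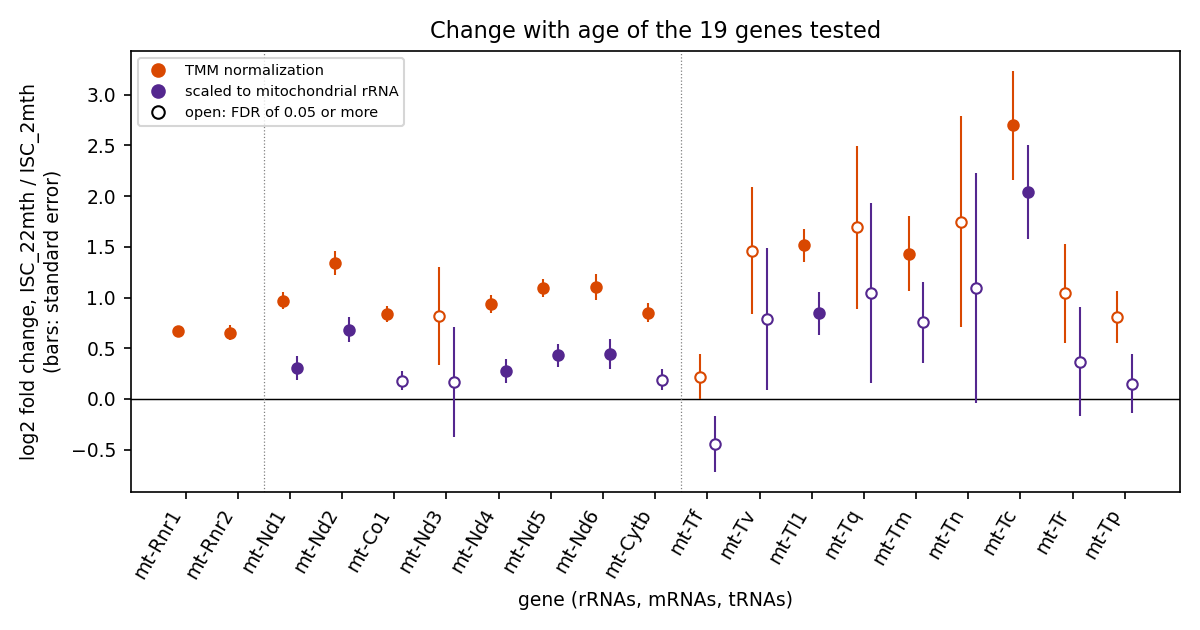
Log2 fold change of old against young ISCs (vertical axis, bars are standard errors) for the 19 genes tested, with TMM normalization and scaled to mitochondrial rRNA. Filled points have an FDR under 0.05, which 12 genes reach with TMM and 7 relative to the rRNAs.

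The tRNA genes had low counts, at most 453 in a pool, and 3 of the 9 tested rose. Counts on a tRNA gene do not separate the cut tRNA from an uncut precursor, and their source was not tested. The leucine tRNA mt-Tl1, whose gene in mammals also holds a binding site of the transcription terminator protein MTERF1, had 197 and 171 counts in young and 451 and 453 in old ISCs. Replicates were close and the ages well apart, with a log2 fold change of 1.51 ± 0.16 (edgeR FDR 1.70e-05). The methionine tRNA mt-Tm had 35 and 20 counts in young and 59 and 69 in old ISCs, a log2 fold change of 1.43 ± 0.37 (edgeR FDR 0.0476). The cysteine tRNA mt-Tc had 8 and 16 counts in young and 109 and 28 in old ISCs, a log2 fold change of 2.70 ± 0.54 (edgeR FDR 0.0118).

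The calls of mt-Tm and mt-Tc depended on the setting. The old pools of mt-Tc were far apart, and without the first of them its log2 fold change was 1.49 and no longer passed (edgeR FDR 0.285). With all pools it also missed the threshold in limma voom with quality weights (FDR 0.0608). That of mt-Tm passed in 8 of the 16 other settings. It was lost in 6 that kept all pools, among them DESeq2 (FDR 0.147), and had an FDR of 0.267 without the second ISC_2mth pool and 0.0928 without the second ISC_22mth pool.

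For the phenylalanine tRNA mt-Tf counts were 102 and 116 in young and 114 and 104 in old ISCs. Raw counts of the ages thus overlapped, and after normalization the log2 fold change was 0.22 ± 0.22 (edgeR FDR 0.667), which turned to -0.27 with total counts. The gene lies just before mt-Rnr1, and mt-Tf counts per 1000000 mt-Rnr1 counts were 36.05 and 39.7 in young and 27.9 and 27.4 in old ISCs, so both old pools were below both young ones. The proline tRNA mt-Tp had 59, 84, 121 and 94 counts, in the order young 1, young 2, old 1 and old 2, and a log2 fold change of 0.81 ± 0.26 (edgeR FDR 0.111). It passed in 1 of the other settings, without the second ISC_22mth pool.

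The remaining tRNAs tested had at most 33 counts in a pool. In the same order, the arginine tRNA mt-Tr had 21, 15, 33 and 31 counts and the valine tRNA mt-Tv had 12, 8, 27 and 21. The glutamine tRNA mt-Tq had 4, 8, 23 and 11 counts and the asparagine tRNA mt-Tn had 3, 4, 17 and 4. None of these 4 passed, and their standard errors were between 0.49 and 1.04 on the log2 scale. Of the 13 tRNAs that failed the filter, 7 had no counts and the other 6 had at most 12 in a pool, and a floor of 3 counts in a pool stood for 0.199 to 0.246 normalized CPM. Among them the second leucine tRNA, mt-Tl2, had 1 and 2 counts in young and 8 and 9 in old ISCs. Change in these 13 was not tested.

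**Figure D5:**
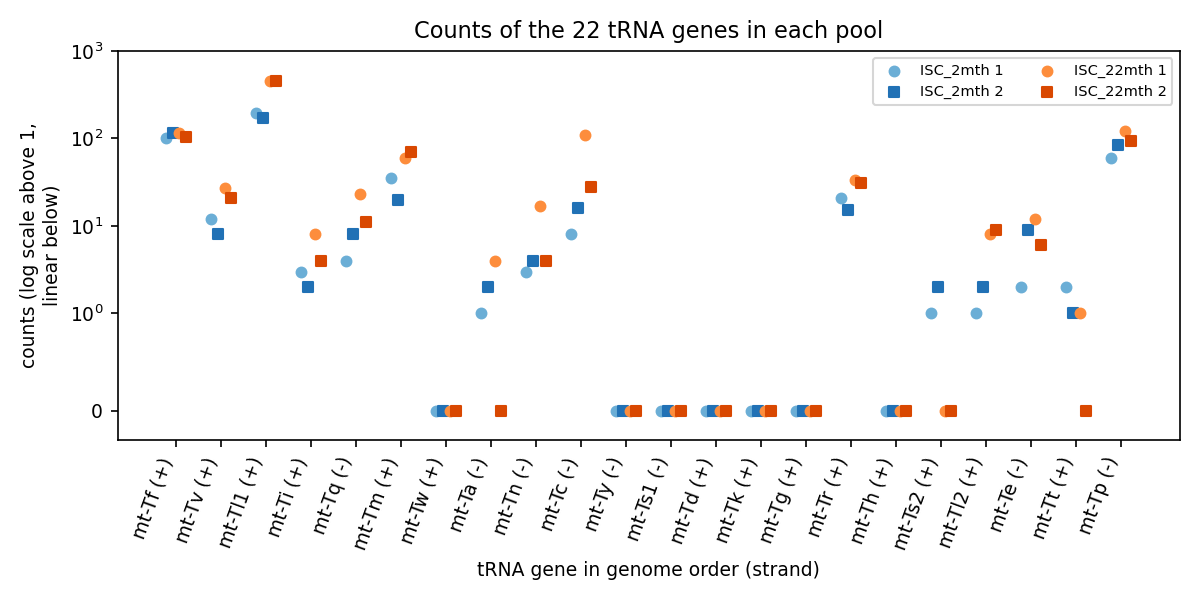
Counts (vertical axis, logarithmic above 1 and linear below) of the 22 tRNA genes in genome order with their strand, 1 point for each pool. For mt-Tl1 the old pools stand at 451 and 453 and the young pools at 197 and 171, while 7 genes stand at 0 in every pool.

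Per length, the rRNAs were far above every mRNA. In normalized CPM per kilobase of annotated length, mt-Rnr1 was at 203686 ± 1036 (SD, n = 2) in young and 324843 ± 926 in old ISCs, and mt-Rnr2 at 196611 ± 33520 and 309063 ± 16052, so that their pools overlapped in young ISCs and both mt-Rnr1 pools lay above both mt-Rnr2 pools in old ISCs. Next came mt-Co1 at 9318 ± 1071 in young and 16686 ± 681 in old ISCs and mt-Cytb at 8101 ± 1146 and 14606 ± 1888. Their young pools overlapped and their old pools did not. Then came mt-Nd1, with 4149 ± 322 in young and 8116 ± 118 in old ISCs.

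The lower mRNAs lay close together per kilobase. In young ISCs mt-Nd5 was at 2465 ± 255, mt-Nd4 at 2212 ± 128, mt-Nd2 at 1958 ± 357 and mt-Nd6 at 1015 ± 186. In old ISCs mt-Nd5 was at 5257 ± 337, mt-Nd2 at 4963 ± 740, mt-Nd4 at 4243 ± 360 and mt-Nd6 at 2178 ± 313. Within each library mt-Nd4 was above mt-Nd2 in both young pools and below it in both old pools, although across libraries of an age their levels overlapped. In both ages mt-Nd6 lay below the others with no overlap. The tRNA with the highest level in old ISCs, mt-Tl1, was at 166 ± 21.3 in young and 475 ± 28.01 in old ISCs.

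The order depends on which bases can be counted. Per 1000 stretches of 50 bases found in no other gene, mt-Co1 rose to 19695 ± 2264 in young and 35267 ± 1439 in old ISCs, and mt-Nd4 to 6072 ± 351 and 11647 ± 989. By that measure mt-Nd4 stood above mt-Nd1, at 4373 ± 340 and 8554 ± 124, which is the reverse of the order per kilobase. It also stood above mt-Nd2, at 2238 ± 408 and 5673 ± 846, in every pool, so their change of order with age was seen per kilobase only. Since mt-Nd3 has only 6 such stretches, its level moved most among the mRNAs given a level. Per kilobase it was at 3.78 ± 0.30 in young and 6.70 ± 1.17 in old ISCs, and per 1000 such stretches at 219 ± 17.6 and 389 ± 68.1. It has no firm place in the order.

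Several mRNAs rose more than the rRNAs of the same genome. Counts on mRNAs per 100 counts on rRNAs were 7.39 and 7.53 in young and 9.28 and 8.72 in old ISCs, with no overlap. When libraries were scaled to their summed rRNA counts, a scale on which 52.6% of all genes tested were lower and 0.555% higher in old ISCs, 7 of the 17 other mitochondrial genes tested were higher and 0 lower (edgeR FDR under 0.05), and limma voom gave the same counts. The median of all genes on this scale was -0.67.

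Genes that rose relative to the rRNAs are annotated on both strands, though without a strand setting the strand of their reads is not known. They were mt-Nd2 with a log2 fold change of 0.68 ± 0.12 (edgeR FDR 2.09e-06), mt-Nd5 with 0.43 ± 0.11 (edgeR FDR 0.000792), mt-Nd6 with 0.45 ± 0.15 (edgeR FDR 0.00762), mt-Nd1 with 0.31 ± 0.12 (edgeR FDR 0.0191), mt-Nd4 with 0.27 ± 0.12 (edgeR FDR 0.0426), mt-Tl1 with 0.84 ± 0.21 (edgeR FDR 0.000544) and mt-Tc with 2.04 ± 0.46 (edgeR FDR 0.000143). All 5 mRNAs among them encode complex I subunits, though the calls of mt-Nd1 and mt-Nd4 were lost in most other settings. Those of mt-Co1, at 0.18 ± 0.095 (edgeR FDR 0.0921), and mt-Cytb, at 0.19 ± 0.10 (edgeR FDR 0.0985), did not pass, and whether they differ from the complex I mRNAs was not tested by a model. The value of mt-Cytb was 0.086 without the first ISC_22mth pool and 0.29 without the second. With the rRNAs kept as the reference, mt-Nd2, mt-Nd5 and mt-Tl1 were called in all 7 other settings, mt-Tc in 6, mt-Nd6 in 4, mt-Nd1 in 2 and mt-Nd4 in 1. Scaled to the summed mRNA counts, mt-Nd2, mt-Tl1 and mt-Tc were called, and mt-Nd5 at 0.16 was not (edgeR FDR 0.259). Without the first ISC_22mth pool 3 genes were higher, and mt-Tc fell to 0.88 with an FDR of 0.384.

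Among nuclear genes that serve mitochondrial RNA a single gene passed the test. Of 52 such genes, for replication and transcription of the mitochondrial genome and for cutting, modifying and degrading its RNA, 51 were tested, 1 was higher and 0 lower (edgeR FDR under 0.05), against 1.63% and 0.628% of all genes. At an unadjusted p under 0.05, 8 of the 51 were higher and 0 lower, against 9.26% and 7.65% of all genes. DESeq2 called 0 higher, and limma voom, DESeq2 and the likelihood ratio test 0 lower. The median log2 fold change was 0.10, with 31 of 51 above 0, against 49.5% of all genes. Less the median of all genes it was also 0.10, falling to 0.058 without the first ISC_2mth pool and to 0.036 with offsets for GC content and length. The gene called was Ptcd2, a pentatricopeptide repeat protein that acts on the mt-Cytb transcript, with 163 and 179 counts in young and 266 and 228 in old ISCs and a log2 fold change of 0.75 (edgeR FDR 0.0299). It was not called without either ISC_2mth pool.

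The next genes by p did not pass. Fastkd2, which binds mt-Rnr2, had a log2 fold change of 0.64 (edgeR FDR 0.073) and Trmt10c, a subunit of the enzyme that cuts the 5′ ends of tRNAs, 0.54 (edgeR FDR 0.12). By role, none of the 6 genes for replication of the mitochondrial genome and none of the 8 tested for its transcription passed. Of the 8 for stability, polyadenylation and decay of its RNA, 1 passed (Ptcd2). At an unadjusted p under 0.05 (edgeR), 4 of these 8 were higher and 0 lower, against 9.26% and 7.65% of all genes.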

How the data were processed

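Full-length SPIA libraries of sorted ISCs, 2 pools of 5 female mice per age, were sequenced from one end. The authors trimmed reads with Trimmomatic 0.30, aligned them with STAR 2.4.2a to GRCm38, counted them in exons of GENCODE vM15 with featureCounts, and deposited raw counts per gene, neither filtered nor normalized. Depth was 11662654 to 15975698 counts per pool. Groups came from the labels. The methods call the pools biological replicates.

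Here counts were filtered (over 5 reads and over 1 CPM in some pool), scaled by TMM and compared with edgeR 4.0.16 (quasi-likelihood test, R 4.3.3, Benjamini-Hochberg over 13692 genes, FDR 0.05). Standard errors came from the fold change and F. The fit was also run with library sizes set to the summed mt-Rnr1 and mt-Rnr2 counts, and was tested on simulated data. Alternatives used limma 3.58.1, DESeq2 1.42.0, other scalings, filters and left-out pools. Positions, lengths and 50-base matches came from GENCODE vM21 transcripts of GRCm38, as the genome was not used here. Every mt- gene was accounted for, and genes outside were named by FDR, lowest p (3 at most) or highest counts (5 at most). Members and lists were chosen with earlier results of these data known.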

Additional observations from a re-analysis of the deposited data

How the results depend on the processing

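Of the 37 genes, 10 to 12 were called higher and 0 lower in each of the 16 other settings. Replicate numbers in the 2 ages name different animals, and the correlation of same-numbered pools was -0.0031. With the replicate block 12 were called higher, and relative to the rRNAs 5. With libraries scaled to the mRNAs in place of the rRNAs, 3 were higher and, the rRNAs aside, 1 lower (mt-Tf, -0.71), and both rRNAs were lower too (-0.26 and -0.27), as were 9904 of all 13692 genes. With scaling to mt-Rnr2 4 were higher, and with scaling to both rRNAs leaving out a pool gave 3 to 6. Values that changed sign were mt-Tf at -0.27 with total counts and, relative to the rRNAs, mt-Tn (from -0.15 without the first ISC_22mth pool to 1.73 without the second), mt-Nd3 (from -0.058 without the second to 0.36 without the first) and, scaled to the mRNAs, mt-Nd3 at -0.10, mt-Co1 at -0.089, mt-Cytb at -0.082 and mt-Tp at -0.12. The cause was not tested. Of the nuclear list, 2 were higher with the likelihood ratio test and with the block, 0 with DESeq2, total counts and offsets for GC content and length, and 0 to 1 without a pool, and total counts called 10 lower, with 4554 of all 13692 genes. With counts outside mitochondrial rRNA as denominator the mRNA share differed by 7.47 percentage points in place of 1.61. The level of mt-Co1 over mt-Cytb was 1.15 per kilobase in both ages and 2.33 in young and 2.32 in old ISCs per stretch found in no other transcript, and mt-Nd4 over mt-Nd1 moved from 0.53 and 0.52 to 1.39 and 1.36. The last measure and the offsets were chosen after seeing the data, and the first stands in for a match to the genome, which was not run. When a pool was left out, the lone pool of its age was assumed to vary like the other age. Low counts kept 13 tRNAs out of the test.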
